A study of Mus musculus with 14 samples.

Results

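Genes of iron export and heme breakdown were followed in mouse muscle precursor cells depleted of isoforms of the RNA-binding protein Quaking (Qk). They are Slc40a1, Cp and Hmox1, 3 of the 1036 genes of the expression table, taken by symbol. All 3 were found, and no filter on low values was applied to them. They were chosen by their mean levels in Qk5-depleted, Qk6/7-depleted and control cells, so those levels and folds are given as a description, and no test was made on them. The adjusted p-values printed for them are the authors' own, copied as part of the table.

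The cells are C2C12, an immortal mouse myoblast line that can fuse into muscle fibres. Grown in high-glucose DMEM with 10% FBS, they were transiently transfected through Lipofectamine 2000 with small interfering RNA (siRNA) specific for Qk5, with siRNA specific for Qk6 and Qk7, or with control siRNA, in 3 replicates per group, of which replicate 1 was sequenced in 2 runs. Ribosome-depleted bulk RNA was sequenced, so a change in the share of cells that make an RNA and a change in the amount per cell cannot be told apart. The other 2 of the 14 samples are 2 runs of 1 pan-Qk depletion and were not analysed here. The expression table gives 1 mean per group, in read counts divided by size factors ("normalized counts"), with no value per replicate, so no SD or interval can be set beside a level, and the depth per sample is unknown. Both depletions were set against the same control means, so their folds over control are not independent of each other. The targeted gene, Qk, averaged 3267 normalized counts after Qk5 depletion and 5271 after Qk6/7 depletion, against 5875 in control cells, by the authors' deposited table. Its fold was 0.556 after Qk5 depletion (DESeq adjusted p = 0.00246) and 0.897 after Qk6/7 depletion (adjusted p = 1), by the authors' deposited table. The table counts the gene as a whole, so it does not check the depletion of each isoform, and the library labels of Qk6/7 depletion are not checked by it.

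Iron leaves a cell through ferroportin, the product of Slc40a1 and the one iron exporter known in mammals, as ferrous iron. Ceruloplasmin, the product of Cp, is a copper-carrying ferroxidase that oxidizes the exported iron so that transferrin can take it up. Heme oxygenase 1, the product of Hmox1, opens the heme ring and releases iron, carbon monoxide and biliverdin, which biliverdin reductase A (Blvra) turns into bilirubin. Ferroportin is made under the control of an iron-responsive element, an RNA hairpin that iron regulatory proteins grip when iron is scarce. Quaking proteins bind RNA at a core written ACUAAC or ACUAAU, and Qk5 is mostly nuclear while Qk6 and Qk7 are found in the cytoplasm.

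On the GRCm38 build, GENCODE M21 places the longest-coding transcript of Slc40a1 on the minus strand of chromosome 1 at chr1:45908068-45925582, in 8 exons. That of Cp lies on the plus strand at chr3:19957054-20007609 in 20 exons, and that of Hmox1 on the plus strand at chr8:75093621-75100589 in 5 exons. The submitters' processing notes name the older build mm9, and no coordinate was carried between the builds. The 3 transcripts differ in length, at 3370 bases for Slc40a1, 4564 for Cp and 1569 for Hmox1.

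The sequence elements that bear on iron and on Quaking are shown first, because they did not enter the choice of the genes. The hairpin was searched for as a C, a stem of 5 paired bases (G-U pairs allowed) and the loop CAGTGN, on the sense strand, and the Quaking core as ACTAAC or ACTAAT on the sense strand. Capitals mark the hairpin loop in the first line and the Quaking core in the other lines, all written 5′ to 3′ as DNA.
Slc40a1 iron-responsive element: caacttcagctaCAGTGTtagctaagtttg
Slc40a1 Quaking element, overlapping pair: ggctaggagcACTAACTAACcatcgccagc
Slc40a1 Quaking element, single: tcatcagccatcACTAACtattttggtaaa
Cp Quaking element, first: acccttttcaatACTAACtttaagtattgg
Cp Quaking element, second: ttgttgtagttaACTAATaaattactgagg

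The Slc40a1 hairpin lies in exon 1, in the 5′ untranslated region (UTR), within the printed bases at chr1:45925464-45925493 on the minus strand of GRCm38. Below the bulged C its stem goes on for 5 more pairs. The same search found a hairpin in the 5′ UTR of 19 of 20433 genes (0.0930%), among them the ferritin genes Fth1 and Ftl1 and the erythroid heme synthesis gene Alas2, and in 0.203% of the 2951 5′ UTRs within 20% of the length of that of Slc40a1. The search also found genes such as Aunip, Malt1 and Olfr6, and whether its matches work as iron-responsive elements was not tested. Slc40a1 was the 1 gene of the 19 among the 1036 that the expression table holds, where 16604 genes were tested after Qk5 depletion. Cp and Hmox1 had no such hairpin in the 5′ UTR.

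The 3′ UTR of Slc40a1, 1341 bases long, held ACTAAC 3 times, at bases 134, 138 and 791, all in exon 8. The first 2 overlap, so that the run reads ACTAACTAAC, a form present in 0.115% of the 2619 3′ UTRs within 20% of that length. This run was read from the Slc40a1 UTR itself before it was counted, so its share is a description only. The overlapping pair also counts as 2 of the 3 matches. At least 1 ACTAAC or ACTAAT was present in 35.4% of those UTRs and 3 or more in 1.68%. The pair lies within the printed bases at chr1:45909256-45909285 and the single site within those at chr1:45908601-45908630, on the minus strand. The longest-coding Cp transcript has a 3′ UTR of 1076 bases with ACTAAC at base 669 and ACTAAT at base 1052, in exon 20. These sites lie within the printed bases at chr3:20007190-20007219 and chr3:20007573-20007602 on the plus strand. At least 1 match was found in 30.5% of the 2623 UTRs of like length and 2 or more in 5.76%. Cp transcripts end in different places, and of the 5 protein-coding ones in the basic annotation 2 held both sites, 1 held a single site and 2 held none. The Hmox1 3′ UTR, 573 bases, had no match, against 16.8% with one among 2095 UTRs of like length.

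For comparison, a match to the Quaking core was present in 28.5% of the 309 genes called higher after Qk5 depletion that have an annotated 3′ UTR, with a median UTR of 929 bases, and in 28.0% of all 21661 genes with such a UTR, whose median is 742 bases. Over the 887 table genes with such a UTR it was 33.9%, with a median UTR of 1049 bases. It was 36.1% of the 119 genes called lower after Qk5 depletion and 31.2% of the 93 called higher after Qk6/7 depletion. Among the 187 genes called lower after Qk6/7 depletion the share was 43.9%, with a longer median UTR of 1321 bases. These shares were not adjusted for UTR length and were not tested. None of the 3 genes carried the 3′ UTR words CTCTGAA or CCTCTGA which were picked, with the values already seen, from genes lowered by Qk5 depletion, nor GTCTTAA or GGTCTTA, picked likewise from genes lowered by Qk6/7 depletion. The RefSeq promoter table holds 2 start sites of Cp, and neither window of 300 bases held the antioxidant response core TGANNNNGC or a hypoxia core ACGTG or GCGTG on either strand, which 41.3% and 43.8% of all 32851 promoters hold. Slc40a1 and Hmox1 have no entry in it.

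**Figure D1:**
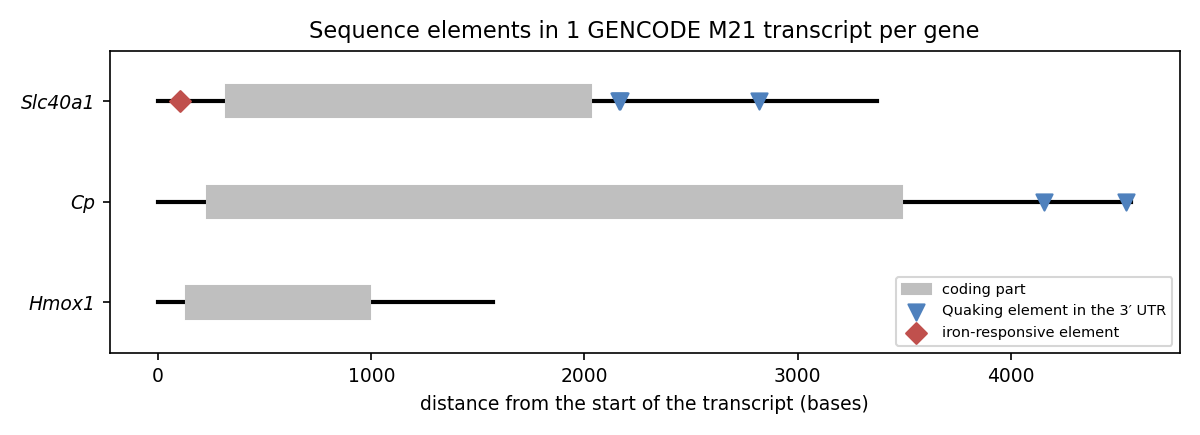
Iron-responsive element and Quaking elements along 1 GENCODE M21 transcript of each gene; the x axis is the distance in bases from the start of the transcript, grey boxes are the coding part and black lines the UTRs. Slc40a1 carries the hairpin in the 5′ UTR and 3 Quaking elements in the 3′ UTR, of which the overlapping pair is drawn nearly on top of each other, Cp carries 2 near its end, and Hmox1 none.

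Slc40a1 had a mean of 602 normalized counts after Qk5 depletion and 142 after Qk6/7 depletion, against 213 in control cells, by the authors' deposited table. The RNA of the iron exporter was thus highest where Qk5 was depleted and lowest where Qk6/7 was depleted. Set against control, the fold was 2.82 after Qk5 depletion (DESeq adjusted p = 3.60e-08) and 0.666 after Qk6/7 depletion (adjusted p = 0.293, unadjusted p = 0.0157), by the authors' deposited table. The second of these did not pass the threshold of 0.05. The mean after Qk5 depletion was 4.24 times that after Qk6/7 depletion, a ratio that does not use the controls.

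Cp had a mean of 561 normalized counts after Qk5 depletion and 145 after Qk6/7 depletion, against 283 in control cells, by the authors' deposited table. The ferroxidase gene had the same order of groups as the exporter, and it passed the threshold in both comparisons. Set against control, the fold was 1.98 after Qk5 depletion (DESeq adjusted p = 0.000363) and 0.512 after Qk6/7 depletion (adjusted p = 0.00626), by the authors' deposited table. The log2 folds were 0.99 and -0.97, nearly the same size in opposite directions. The ratio of the Qk5 mean to the Qk6/7 mean was 3.88.

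Hmox1 had a mean of 678 normalized counts after Qk5 depletion and 507 after Qk6/7 depletion, against 450 in control cells, by the authors' deposited table. The heme oxygenase gene was therefore lowest in control cells, while Slc40a1 and Cp were lowest after Qk6/7 depletion. Set against control, the fold was 1.50 after Qk5 depletion (DESeq adjusted p = 0.0572, unadjusted p = 0.00177) and 1.13 after Qk6/7 depletion (adjusted p = 1), by the authors' deposited table. Hmox1 stands in the table because the authors kept genes with an adjusted p under 0.1 in either comparison, and it did not pass 0.05 in any. Its Qk5 mean was 1.34 times its Qk6/7 mean.

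**Figure D2:**
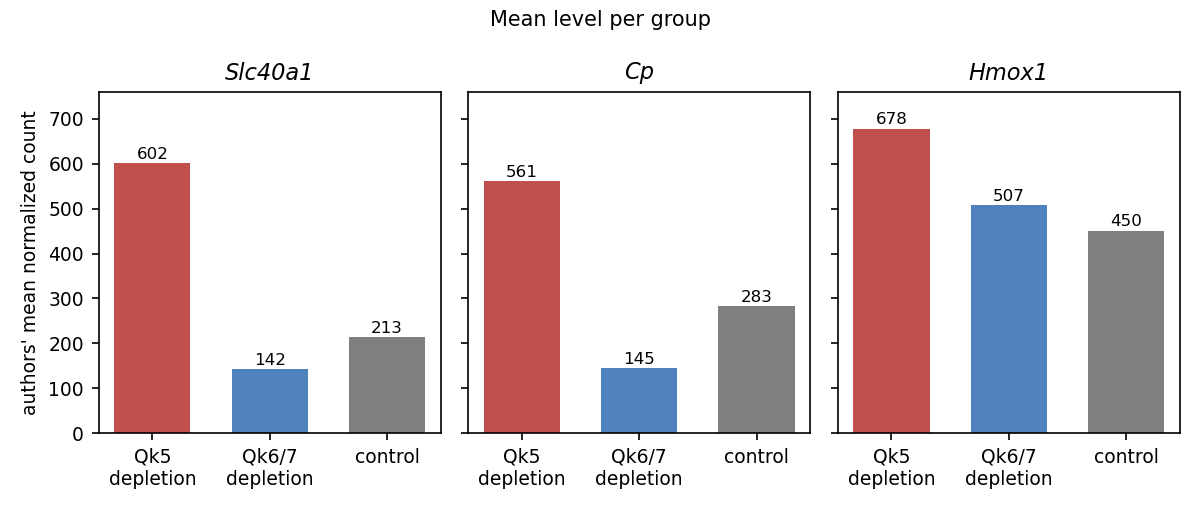
Mean normalized count (y axis, the authors' group means, no error available) of Slc40a1, Cp and Hmox1 after Qk5 depletion, after Qk6/7 depletion and in control cells. Slc40a1 and Cp stand at 602 and 561 after Qk5 depletion and at 142 and 145 after Qk6/7 depletion, on either side of their control bars, while Hmox1 stands at 678 after Qk5 depletion, 507 after Qk6/7 depletion and 450 in control cells.

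At an adjusted p under 0.05, 2 of the 3 genes were called higher after Qk5 depletion, where 2.17% of the 16604 genes tested were, and 1 was called lower after Qk6/7 depletion, where 1.29% of 16564 were. None was called lower after Qk5 depletion or higher after Qk6/7 depletion, against 0.801% and 0.61% of genes tested, and none of the 3 was so at an unadjusted DESeq p under 0.05 either. With an adjusted p under 0.1, all 3 were higher after Qk5 depletion, where 2.84% of genes were higher and 1.18% lower, and 1 was lower after Qk6/7 depletion, where 0.978% were higher and 1.73% lower. The choice of the genes used these comparisons, so nothing is read from the counts. Per 1000 bases of the GENCODE transcript, the level of Hmox1 was the highest in each group, at 432 normalized counts after Qk5 depletion, 323 after Qk6/7 depletion and 287 in control cells. Slc40a1 had 179, 42.2 and 63.3 per 1000 bases in the same order of groups, and Cp had 123, 31.7 and 61.9. On that scale Slc40a1 and Cp lay close together in control cells and Slc40a1 was the higher one in both depletions. Other annotated Cp transcripts are as short as 3183 bases, which would raise the Cp values, so the order of these 2 genes depends on the transcript chosen. The spread between replicates is unknown, so these orders have no error.

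Over the 1033 genes of the table with finite folds, 127 had a larger fold than Slc40a1 after Qk5 depletion, 274 a larger one than Cp and 472 a larger one than Hmox1. After Qk6/7 depletion, 177 of the 1033 genes had a lower fold than Cp and 335 a lower one than Slc40a1. For the ratio of the Qk5 mean to the Qk6/7 mean, 79 genes exceeded Slc40a1, 97 exceeded Cp and 621 exceeded Hmox1. The median of that ratio was 0.72 on the log2 scale, against 2.08 for Slc40a1, 1.96 for Cp and 0.42 for Hmox1. These ranks use the means by which the genes were chosen, in a table that holds only genes past the authors' threshold, and are a description.

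In the plane of both log2 folds Slc40a1 and Cp lay 0.63 apart, and 95 of the 1031 other genes lay closer to Slc40a1 than Cp did. Hmox1 lay 1.18 from Slc40a1 and 1.21 from Cp. The genes most like Slc40a1, by distance over these 2 folds and so over 3 group means, were Mal, a membrane protein of myelin and epithelia, Arsg, a lysosomal sulfatase, and Ly6c2, a surface antigen of monocytes and other cells. Mal had a fold of 2.75 after Qk5 depletion and 0.678 after Qk6/7 depletion, by the authors' deposited table. Nearest to Cp were Tmem140, the membrane glycoprotein gene Gpnmb and the matrix gene Dpt (dermatopontin). Tmem140 had a fold of 2.01 after Qk5 depletion and 0.521 after Qk6/7 depletion, and Dpt of 1.86 and 0.487, by the authors' deposited table. Nearest to Hmox1 were Sorbs2, an adaptor of the actin skeleton, Arfgap3, of Golgi transport, and Ddah2, which belongs to a family that handles methylated arginine. Sorbs2 had a fold of 1.49 after Qk5 depletion and 1.15 after Qk6/7 depletion, by the authors' deposited table.

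**Figure D3:**
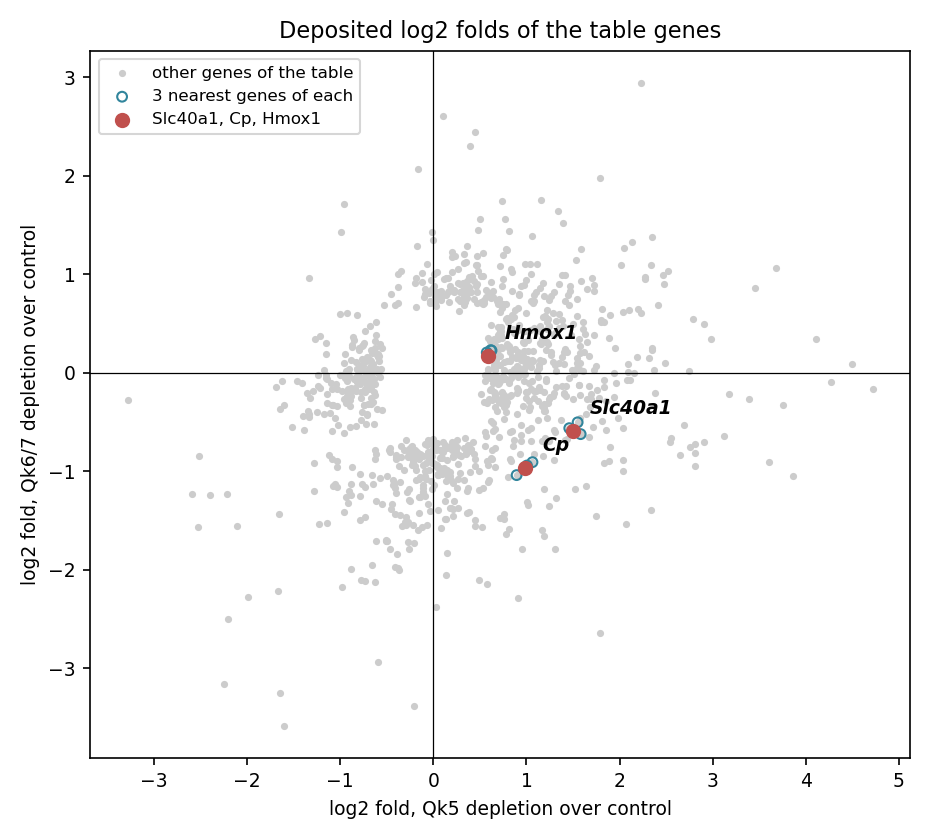
Deposited log2 fold over control after Qk5 depletion (x axis) and Qk6/7 depletion (y axis) for the 1033 genes with finite folds; red points are Slc40a1, Cp and Hmox1, and rings are the 3 genes nearest to each. Slc40a1 and Cp lie in the lower right and Hmox1 just above the horizontal axis; the empty centre is where genes did not reach the table.

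The rest of iron and heme handling was mostly outside the table, which holds 1036 genes where 16604 were tested after Qk5 depletion. Most tested genes were thus outside it, and absence from it is no result about these lists. Of 91 other genes in 9 lists (iron export, uptake, storage and sensing, heme synthesis, transport and breakdown, mitochondrial iron and iron-sulfur clusters, and copper supply), 5 were in it and 86 were not, among them the transferrin receptor Tfrc, the ferritins Fth1 and Ftl1, the iron regulatory genes Aco1 and Ireb2 and all 9 heme synthesis genes. Of a gene outside the table no more is known here than an adjusted p of at least 0.1 in both comparisons, or no test. Of the 91 genes, 1 was called higher and none lower after Qk5 depletion, and 1 was called lower and none higher after Qk6/7 depletion. Of all genes tested, 2.17% were called higher and 0.801% lower after Qk5 depletion, and 1.29% lower and 0.61% higher after Qk6/7 depletion, so single calls among 91 genes are no result about these lists. At an unadjusted DESeq p under 0.05, 2 of the 5 in the table were lower after Qk5 depletion and 0 higher after Qk6/7 depletion.

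Blvra, the reductase that acts after heme oxygenase, had a mean of 409 normalized counts after Qk5 depletion and 470 after Qk6/7 depletion, against 675 in control cells, by the authors' deposited table. Its fold was 0.606 after Qk5 depletion (DESeq adjusted p = 0.0678) and 0.696 after Qk6/7 depletion (adjusted p = 0.427), by the authors' deposited table, so neither passed 0.05, while the Hmox1 mean was above control in both. The short Blvra 3′ UTR, 94 bases, held words of both sets, shown because the 3 genes above hold neither. Capitals mark CCTCTGA and CTCTGAA, which overlap, and GGTCTTA, in the bases at chr2:127097011-127097040 on the plus strand of GRCm38.
Blvra 3′ UTR words: CCTCTGAAacggggccagggtttGGTCTTA
Of 732 UTRs within 20% of that length, 2.73% held a word of the first set and 0.683% one of the second. A word of the first set was also present once in Slc48a1 and once in Atp7a, whose folds after Qk5 depletion were 0.628 and 1.05 by the authors' deposited table. It was present 3 times in the 8583-base 3′ UTR of Steap2, which the expression table does not hold. Hfe2 and Isca2 held none, with folds after Qk5 depletion of 2.32 and 0.848 by the authors' deposited table. The words were picked from genes lowered in these same depletions, so a match in a gene with a lower level is no independent evidence. Whether the words bear on these levels was not tested. Among UTRs of like length, 37.1%, 8.74% and 77.7% held such a word for Slc48a1, Atp7a and Steap2.

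Slc48a1, which carries heme out of endosomes and lysosomes, had a mean of 1552 normalized counts after Qk5 depletion and 1981 after Qk6/7 depletion, against 2472 in control cells, by the authors' deposited table. Its fold after Qk5 depletion was 0.628 (DESeq adjusted p = 0.0982), by the authors' deposited table. Slc48a1 and Blvra thus both had means below control in both depletions, without a call. Hfe2 (hemojuvelin), a co-receptor that drives hepcidin in liver and is also made in skeletal muscle, was the gene called higher after Qk5 depletion. It had a mean of 109 normalized counts after Qk5 depletion and 67.5 after Qk6/7 depletion, against 47.1 in control cells, by the authors' deposited table, and its fold after Qk5 depletion was 2.32 (DESeq adjusted p = 0.0298).

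Atp7a, a pump that loads copper onto secreted enzymes, was the gene called lower after Qk6/7 depletion. Its mean was 920 normalized counts after Qk5 depletion and 510 after Qk6/7 depletion, against 878 in control cells, by the authors' deposited table. The fold after Qk6/7 depletion was 0.581 (DESeq adjusted p = 0.0357) and that after Qk5 depletion 1.05 (adjusted p = 1), by the authors' deposited table. Cp and Atp7a were thus both called lower after Qk6/7 depletion, while after Qk5 depletion Cp was called higher and Atp7a was not called. Isca2, an assembly factor of mitochondrial iron-sulfur clusters, had a fold of 0.848 after Qk5 depletion and 0.592 after Qk6/7 depletion (DESeq adjusted p = 0.0751), by the authors' deposited table.

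Hmox1 is a textbook target of the oxidative stress factor NRF2 and of its rival BACH1. Among the targets listed here that the table holds, it was the 1 with folds above 1. Slc40a1 was not on that list, so its folds of 2.82 after Qk5 depletion and 0.666 after Qk6/7 depletion are not counted there. A list that held Slc40a1 would not have Hmox1 as its 1 target above 1 after Qk5 depletion. Of 33 listed targets 11 were in the table, and the other 10 had folds below 1 in both depletions, from 0.217 to 0.816 after Qk5 depletion and from 0.178 to 0.922 after Qk6/7 depletion. Of these 10 genes 3 were called lower after Qk5 depletion and 8 after Qk6/7 depletion, and none was called higher, nor was any at an unadjusted DESeq p under 0.05 (0 in each comparison). Of all genes tested, 0.801% were called lower after Qk5 depletion and 1.29% after Qk6/7 depletion, but the 10 genes are those of the list that had already reached the table, at an adjusted p under 0.1 in either comparison. Their median log2 fold was -0.75 after Qk5 depletion and -1.33 after Qk6/7 depletion, against medians over the table of 0.45 and -0.11. The list was drawn up with the fall of several of these genes already known, so its direction is no independent evidence.

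Nqo1, a quinone reductase, had a fold of 0.602 after Qk5 depletion (DESeq adjusted p = 0.191) and 0.364 after Qk6/7 depletion (adjusted p = 1.68e-07), by the authors' deposited table. Slc7a11, which imports cystine, had a fold of 0.485 after Qk5 depletion (DESeq adjusted p = 0.0571) and 0.922 after Qk6/7 depletion (adjusted p = 1), by the authors' deposited table. The glutathione transferase Gsta3 had folds of 0.217 and 0.178 and the aldehyde dehydrogenase Aldh3a1 folds of 0.412 and 0.436 in Qk5 and Qk6/7 depletion, by the authors' deposited table, and these 2 genes were called lower in both. Gsta2 was called lower in both as well, at 0.452 after Qk5 depletion, by the authors' deposited table. Next to Gsta3, the lowest folds of the list after Qk6/7 depletion were those of Gsta1 (0.307), Gsta2 (0.347) and Mgst1 (0.363), by the authors' deposited table. The 3 Gsta genes are closely similar copies, and how their shared reads were assigned is unknown, which makes each value uncertain. Maff, a small partner protein of NRF2 and BACH1 and the 1 of 9 listed regulators in the table, had a fold of 1.53 after Qk5 depletion (DESeq adjusted p = 0.0718) and 1.25 after Qk6/7 depletion (adjusted p = 0.847), by the authors' deposited table.

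Hmox1 and Cp are also known to respond to low oxygen. Of the 25 other hypoxia targets listed 5 were in the table, of which 3 were called higher after Qk5 depletion and 1 lower after Qk6/7 depletion. None was called higher after Qk6/7 depletion, but 4 of the 5 had folds above 1 there, 2 of them at an unadjusted DESeq p under 0.05. All 5 had folds above 1 after Qk5 depletion. The shares over all genes tested were 2.17% higher after Qk5 depletion and, after Qk6/7 depletion, 1.29% lower and 0.61% higher. The 5 genes had already reached the table, at an adjusted p under 0.1 in either comparison, so their counts are not comparable with these shares. The list was also drawn up with earlier results of these data known. Pdk1, a kinase that shuts off pyruvate dehydrogenase, rose 3.50-fold after Qk5 depletion, Bnip3, a mitochondrial mitophagy receptor, 2.29-fold and Ankrd37 1.75-fold, by the authors' deposited table. P4ha1, a collagen prolyl hydroxylase, had a fold of 1.57 after Qk5 depletion (DESeq adjusted p = 0.0585), by the authors' deposited table, close to that of Hmox1. Ero1l, an oxidase of the endoplasmic reticulum, fell to 0.512 of control after Qk6/7 depletion, by the authors' deposited table, the same fold as Cp, with 1.05 after Qk5 depletion. Of the 20 acute phase genes listed, Cp was the 1 in the table.

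**Figure D4:**
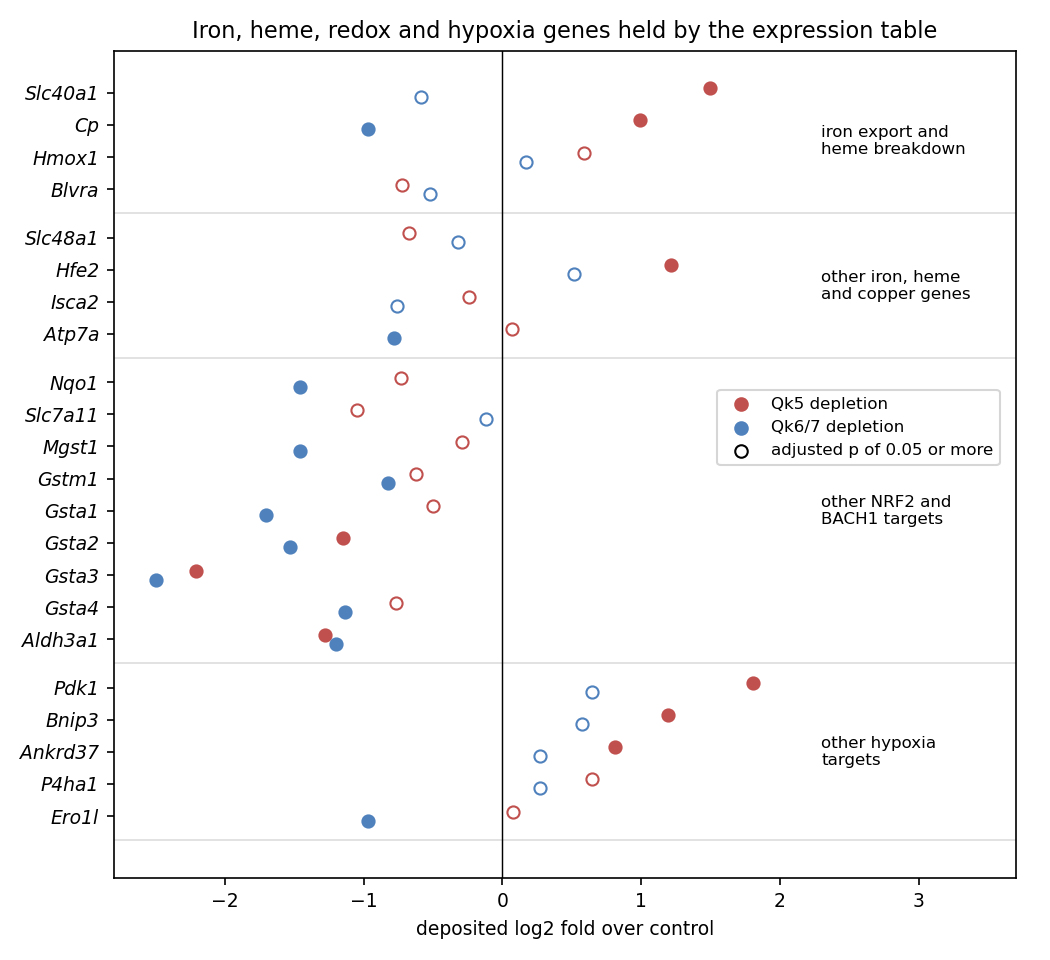
Deposited log2 fold over control (x axis) after Qk5 depletion (red) and Qk6/7 depletion (blue) for the genes named from the iron, heme, redox and hypoxia lists (rows); filled points passed an adjusted p of 0.05. Hmox1 lies right of 0 in both depletions while the other listed redox targets, among which Slc48a1 is also listed, lie left of it. Slc40a1 and Cp, which are not on the redox list, are on opposite sides of 0 in the 2 depletions.

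Markers of muscle differentiation were also higher after Qk5 depletion. Of 16 such markers 13 were in the table, and 12 were called higher after Qk5 depletion and none after Qk6/7 depletion (4 at an unadjusted DESeq p under 0.05), with folds from 1.87 to 5.32 and a median of 2.79 after Qk5 depletion and a median of 1.31 after Qk6/7 depletion. Over all genes tested, 2.17% were called higher after Qk5 depletion and 0.61% after Qk6/7 depletion. The 13 markers had already reached the table, at an adjusted p under 0.1 in either comparison, and the list was drawn up with earlier results known. The largest folds were those of Mb (myoglobin, 5.32-fold), the troponin Tnni1 (3.32-fold), the giant filament protein Neb (3.08-fold) and the troponin Tnnc2 (3.08-fold), by the authors' deposited table. Of 11 myoblast markers the table holds Myf5, which was called higher after Qk6/7 depletion at 1.88-fold, by the authors' deposited table. Macrophages that recycle iron are rich in ferroportin and heme oxygenase 1. Of 17 macrophage marker symbols, of which Emr1 and Adgre1 name the same gene, the table holds Cd68, a lysosomal protein that other cells make too. Cd68 had a mean of 77.0 normalized counts after Qk5 depletion and 19.3 after Qk6/7 depletion, against 56.6 in control cells, by the authors' deposited table. Its fold was 1.36 after Qk5 depletion (DESeq adjusted p = 0.509) and 0.341 after Qk6/7 depletion (adjusted p = 0.00501), by the authors' deposited table, the same order of groups as Slc40a1 and Cp. The levels under the other 16 macrophage marker symbols are not known here. The part of muscle differentiation or of other cells in the values of Slc40a1, Cp and Hmox1 was not tested.

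Exon use is a readout that did not enter the choice of the genes. None of the 3 is among the 228 genes of the splicing table, which holds genes with at least 1 exon bin at an adjusted p under 0.1, a bin being a stretch of exon that transcripts use or skip as a unit. Of the 94 genes in the iron, heme and copper lists the table holds 1, Steap2, a metalloreductase that reduces iron and copper before import. The number of genes tested for exon use is not known here, so 1 gene among 94 is no result about these lists. Over about 141565 bins tested, 0.163% had an adjusted p under 0.05. Steap2 had already reached the splicing table through a bin under 0.1, so its count of called bins is not comparable with this share. Of the 11 Steap2 bins 1 was called in the authors' DEXSeq test of the 3 conditions together (adjusted p = 0.0231, by the authors' deposited table). That bin, of 1123 bases at chr5:5664831-5665953 on the minus strand of mm9, is the listed bin nearest the 3′ end of the gene. Its use had a log2 fold of 0.69 after Qk5 depletion and -0.28 after Qk6/7 depletion, by the authors' deposited table, where neither is tested alone. The next bin inward, of 2152 bases, had log2 folds of 0.27 and -0.52 (the authors' DEXSeq p = 0.0151, adjusted p = 1), by the authors' deposited table. The 10 bins that were not called ranged from -0.49 to 0.27 after Qk5 depletion and from -0.52 to 0.55 after Qk6/7 depletion. The called bin was thus used more after Qk5 depletion and less after Qk6/7 depletion than in control cells, as fitted.

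**Figure D5:**
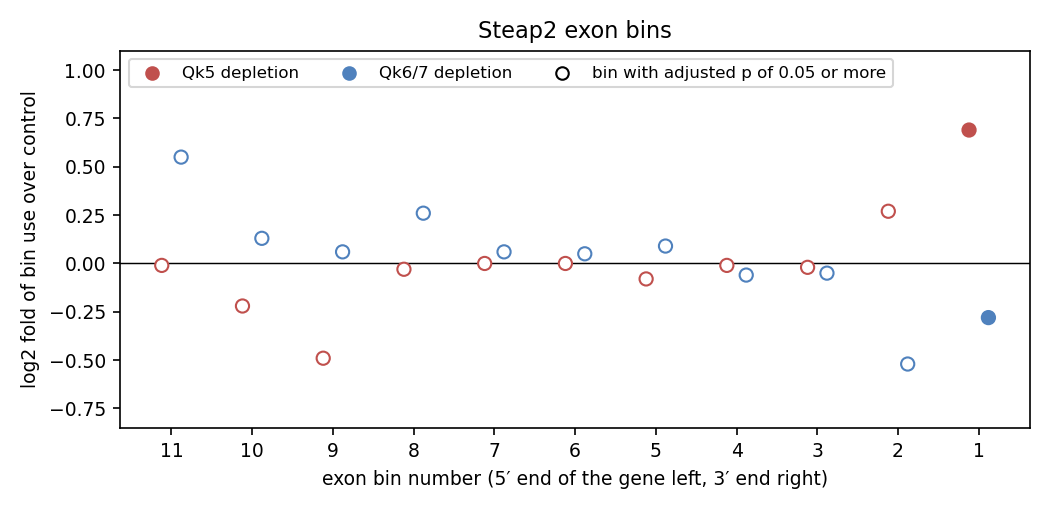
Log2 fold of exon bin use over control (y axis) for the 11 Steap2 bins (x axis, 5′ end left) after Qk5 depletion (red) and Qk6/7 depletion (blue); filled points mark the bin with an adjusted p under 0.05 over the 3 conditions. Bin 1, at the 3′ end, stands at 0.69 after Qk5 depletion and -0.28 after Qk6/7 depletion.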

How the data were processed

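The submitters' processing notes name DESeq, bedtools, SAMtools, TopHat2 and Bowtie2, without versions, and the mm9 build. The sources used here do not state the counting rule, strand setting or gene models. Per the file headers, the expression table holds the authors' mean signal per group (counts over size factors), a fold, the ratio of those means, its log2, p-values and a direction score. The splicing table holds the authors' log2 fold of bin use, a dispersion score and DEXSeq p-values over 3 conditions. A single broken row of the deposited expression values was rejoined. Nothing in the labels says that replicates were separate cultures, so p-values may measure technical spread.

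Calls used the deposited adjusted p of 0.05. The numbers of genes tested were recovered from deposited p and adjusted p by the Benjamini-Hochberg formula, which was tested on simulated data. For exon bins, printed to 3 digits, this is approximate. Members, 16 gene lists and motifs were chosen with earlier results of these data known. The text names Qk, the 3 genes, the 3 nearest table genes of each by Euclidean distance of both log2 folds, every iron, heme or copper list gene in either table, and up to 4 called genes of other lists per comparison; Nqo1, Slc7a11, P4ha1 and Maff were added after their values were seen. UTRs came from GENCODE M21 (GRCm38), 1 transcript per gene with the longest coding part, and promoters from RefSeq (GRCm38.p6). Python 3.11.15, pandas 2.3.3 and numpy 2.4.6 were used. Alternatives were pseudocounts of 1 and 10, centring, adjusted p of 0.1 and 0.01, a level filter and city-block distance.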

Additional observations from a re-analysis of the deposited data

How the results depend on the processing

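All 18 recomputed log2 folds of Slc40a1, Cp and Hmox1 (pseudocounts of 1 and 10, and centring on table genes with an adjusted p of at least 0.1) kept their direction and moved by under 0.1. Among other iron, heme and copper list genes, the 1 called higher in Qk5 depletion became 0 at adjusted p 0.01 and 0 at or above the median level, and the 0 called lower became 2 at adjusted p 0.1. The 1 called lower in Qk6/7 depletion became 2 at adjusted p 0.1 and 0 at 0.01. The other NRF2 and BACH1 targets lower in Qk5 depletion numbered 5 at adjusted p 0.1. Muscle markers higher in Qk5 depletion numbered 5 at or above the median level, and 1 was higher in Qk6/7 depletion at adjusted p 0.1. The level filter leaves fewer genes to count, so a lower count under it is not a change of call. No Steap2 bin was called at adjusted p 0.01 (0 of 11). At or above the median level, 0 of the 3 genes nearest to Slc40a1 and 1 of the 3 nearest to Cp were shared with the full table. No paired analysis was possible because the tables hold no value per replicate. Leaving out each replicate was likewise not run. The tables give no depth and no replicate spread, so how far a difference between 2 group means exceeds the error is known only through the authors' p-values.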
